A study of Homo sapiens with 16 samples.

Results

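The BEX (brain expressed X-linked) genes BEX1, BEX2, BEX3, BEX4 and BEX5 were taken by gene name from a table of 58884 genes, and all 5 were present in it. The family was chosen by the values of BEX1, which were higher with SETD2 siRNA than with scramble siRNA, to see whether its paralogs share that rise. Values of that comparison are therefore given for all 5 genes as a description, without a p. The measurements are RNA-seq of wild type 293T cells, a human embryonic kidney line that carries the SV40 large T antigen. Cells received for 72 h a scramble siRNA, an siRNA against SETD2, the methyltransferase that trimethylates lysine 36 of histone H3 in transcribed genes, or an siRNA against hnRNP L, a splicing regulator that binds SETD2. Each siRNA has 2 libraries, described in the study as independent biological replicates and numbered 2 and 3 for SETD2 siRNA and 1 and 2 otherwise.

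The values are TPM, transcript abundances scaled for length to a total of 1000000 in each library, so that levels of different genes can be compared. Differences between siRNAs are on the scale of log2(TPM + 0.5), which understates changes of low genes. A gene was called when its adjusted p from limma was under 0.05 and its fold change above 1.5, among 16300 genes with a mean of at least 0.5 TPM. TPM hold no read counts, so the depth behind a single value is unknown.

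BEX proteins are small and largely disordered, and are abundant in brain and in several endocrine tissues. BEX3, also called NGFRAP1 or NADE, binds the neurotrophin receptor p75NTR and was first described in neurotrophin-induced cell death. BEX1 has been placed between p75NTR signalling and the cell cycle, BEX2 has been described as a partner of the transcriptional regulator LMO2, and BEX4 as a partner of tubulin and the deacetylase SIRT2. The family shares its origin with the TCEAL (transcription elongation factor A-like) genes, which lie among the BEX genes on the long arm of the X chromosome.

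Each BEX gene is compact, with 3 exons in the main GENCODE transcript and the whole coding sequence in 1 of them. BEX1 (ENSG00000133169) lies on the minus strand of chromosome X of hg38 from 103062651 to 103064171, and BEX2 (ENSG00000133134) on the same strand from 103309346 to 103311007. BEX4 (ENSG00000102409) lies on the plus strand from 103215108 to 103217246, and BEX3 (ENSG00000166681) on the plus strand from 103376395 to 103378164. These 4 genes span 315.5 kb. BEX5 (ENSG00000184515) lies apart, on the minus strand from 102153708 to 102155977, and its start is 908.2 kb from that of BEX1. GENCODE places no other gene over any of the 5. The coding sequences of BEX1 and BEX2 were 92.2% identical, whereas every other pair was between 50.5% and 68.4% identical. Of the 721 windows of 75 bases in the BEX1 transcript, the read length given in the methods, 1 also occurs in BEX2, and none of the windows of BEX3, BEX4 and BEX5 occurs in another gene. Reads with mismatches could still have been divided between BEX1 and BEX2, so their separate values carry that uncertainty.

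The sequence before the start of the main transcript pairs the genes differently from the coding sequence. Over the 250 bases upstream of the start, BEX2 and BEX4 were 84.3% identical and BEX1 and BEX3 69.8% identical, while the remaining pairs were between 42.3% and 48.0% identical. The bases just before the start are shown, 5′ to 3′ on the strand of the gene, so that the pairs and the outlying BEX5 can be compared. They come from RefSeq (GRCh38.p14), whose promoter table held all 5 genes, and the windows are identical to hg38. Capitals mark the palindrome CACGTG, an E-box. For BEX3 only the 30 bases around it are shown, as a further annotated first exon covers that stretch. GENCODE places BEX2 up to 103311007, so the last bases shown for it, with part of the E-box, also lie within the annotated gene.
BEX1, chrX:103064172-103064271, minus strand: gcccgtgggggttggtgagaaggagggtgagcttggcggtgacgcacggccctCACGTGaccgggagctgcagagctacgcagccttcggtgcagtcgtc
BEX3, chrX:103376479-103376508, plus strand: acgcgcggccctCACGTGacccagagctgc
BEX2, chrX:103310991-103311090, minus strand: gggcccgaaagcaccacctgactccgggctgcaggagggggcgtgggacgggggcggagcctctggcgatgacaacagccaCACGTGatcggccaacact
BEX4, chrX:103215008-103215107, plus strand: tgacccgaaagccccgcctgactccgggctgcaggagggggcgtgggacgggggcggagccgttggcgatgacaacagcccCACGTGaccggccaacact
BEX5, chrX:102155978-102156077, minus strand: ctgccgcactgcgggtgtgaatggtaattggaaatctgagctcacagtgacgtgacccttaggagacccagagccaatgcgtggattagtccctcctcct

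The E-box begins 47 bases before the start in BEX1 and in BEX3, and 19 bases before it in BEX2 and in BEX4. BEX5 has none in the same 250 bases. Among 35093 upstream windows of 250 bases, 6.34% hold CACGTG. BEX2 and BEX4 share an unbroken run of 45 bases, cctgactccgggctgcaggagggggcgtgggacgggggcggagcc. The letters TATAAA, searched on both strands, occur in none of the 5 windows and in 10.72% of all windows. CCAAT, also on both strands, occurs in BEX1, BEX3 and BEX5, and in 32.0% of all windows. CpG dinucleotides numbered 19 in BEX1, 18 in BEX3, 12 in BEX4, 11 in BEX2 and 10 in BEX5, against a median of 11 over all windows. The match of letters is a description, and no binding was measured.

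The BEX genes differed widely in level, and their order was the same in all 6 libraries. BEX3 was the most abundant, at 534.15 to 727.82 TPM, which placed its mean at rank 211 of the 16300 tested genes. BEX4 followed at 167.27 to 215.71 TPM and BEX2 at 96.93 to 152.38 TPM. BEX1 had 12.65 to 24.55 TPM and BEX5 6.19 to 10.65 TPM. No neighbours in this order overlapped. BEX3 made up between 64.1% and 65.0% of the summed TPM of the family in every library, and BEX1 between 1.49% and 2.21%.

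**Figure D1:**
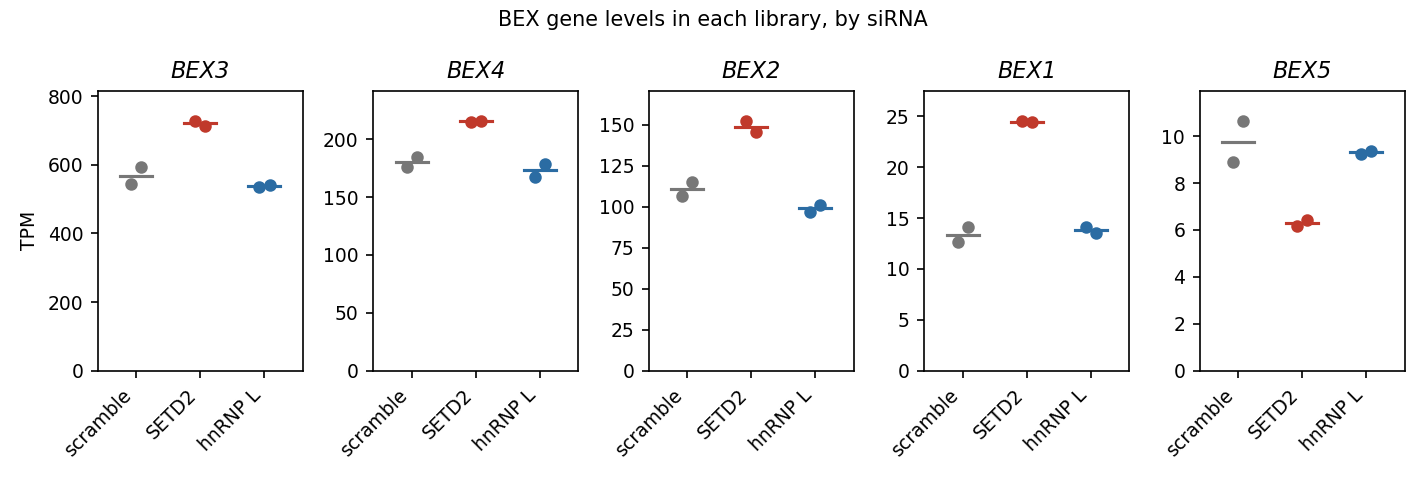
TPM of each BEX gene (vertical axes from 0, 1 scale per gene) in the 2 libraries of each siRNA (points) with their mean (line). With SETD2 siRNA both libraries lie above both scramble libraries for BEX1, BEX2, BEX3 and BEX4 and below them for BEX5, while the hnRNP L siRNA libraries lie close to scramble.

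With SETD2 siRNA, 4 of the 5 BEX genes were higher than with scramble siRNA and BEX5 was lower, and in none of the 5 did the libraries overlap. For BEX1, whose values chose the family, scramble siRNA gave 12.65 and 14.08 TPM, SETD2 siRNA 24.55 and 24.44 TPM, and hnRNP L siRNA 14.13 and 13.5 TPM. The SETD2 siRNA libraries stood above the other 4, which were close together. The scramble mean was 13.4 ± 1.01 TPM (SD, n = 2) and the SETD2 siRNA mean 24.5 ± 0.0778 TPM (SD, n = 2), 1.83-fold of it. In such bulk samples, more cells that express a gene and more RNA per cell cannot be told apart.

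BEX2, its closest relative in coding sequence, measured 106.63 and 115.26 TPM under scramble siRNA, 152.38 and 145.55 TPM under SETD2 siRNA, and 96.93 and 101.38 TPM under hnRNP L siRNA. Again both SETD2 siRNA libraries were the highest, and their mean of 149 ± 4.83 TPM (SD, n = 2) was 1.34-fold of the scramble mean of 111 ± 6.10 TPM (SD, n = 2). BEX3, the p75NTR-binding member, had 543.69 and 593.26 TPM, 727.82 and 714.53 TPM, and 534.15 and 542.41 TPM in the same order of siRNAs. Its SETD2 siRNA mean of 721 ± 9.40 TPM (SD, n = 2) was 1.27-fold of the scramble mean of 568 ± 35.1 TPM (SD, n = 2). BEX4, the tubulin- and SIRT2-associated member, had 176.36 and 184.16 TPM, 214.89 and 215.71 TPM, and 167.27 and 178.76 TPM, and its SETD2 siRNA mean was 1.19-fold of scramble. In BEX2, BEX3 and BEX4 alike, the lowest SETD2 siRNA library was above the highest of the other 4.

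BEX5, for which little function is known, went the other way. Its values were 8.88 and 10.65 TPM for scramble, 6.19 and 6.41 TPM for SETD2 and 9.23 and 9.39 TPM for hnRNP L siRNA, so that SETD2 siRNA left 0.645 of the scramble mean. Both SETD2 siRNA libraries were below all 4 others.

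On the log2 scale, the difference between SETD2 and scramble siRNA was 0.85 (standard error 0.109) for BEX1, 0.42 (standard error 0.0952) for BEX2, 0.34 (standard error 0.0983) for BEX3, 0.26 (standard error 0.0928) for BEX4 and -0.59 (standard error 0.130) for BEX5. The median difference over all tested genes was 0.014. BEX1 was the only member called by limma, where 0.104% of all tested genes were called. As its own values chose the family, this call is a description and no test. It was lost without any 1 of the 4 libraries compared, with log2 differences of 0.778 without scramble replicate 1, 0.927 without scramble replicate 2, 0.849 without SETD2 siRNA replicate 2 and 0.855 without SETD2 siRNA replicate 3. Among all tested genes, 22.9% had both SETD2 siRNA libraries above both scramble libraries and 20.6% had both below. BEX2, BEX3 and BEX4 belong to the abundant genes with short transcripts, and this class was itself shifted. Over the 533 tested genes with a mean of at least 100 TPM and a transcript under 1500 bases, the median difference was 0.147 and 43.7% had both SETD2 siRNA libraries higher. The part of level and length in the values of BEX2, BEX3 and BEX4 was not tested.

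The log2 ratio of BEX1 to BEX2, which does not depend on scaling between libraries, was -3.075 and -3.033 with scramble siRNA and -2.634 and -2.574 with SETD2 siRNA. BEX1 to BEX3 went from -5.426 and -5.397 to -4.89 and -4.87, and BEX1 to BEX4 from -3.801 and -3.709 to -3.13 and -3.142. The ratio was higher in both SETD2 siRNA libraries against each of the paralogs that were themselves higher. For BEX1 to BEX5 it went from 0.511 and 0.403 to 1.988 and 1.931, the widest separation of the 4 ratios. With hnRNP L siRNA the ratio of BEX1 to BEX2 was -2.778 and -2.909, between the scramble and the SETD2 siRNA values, as was that of BEX1 to BEX3, at -5.24 and -5.328, and of BEX1 to BEX5, at 0.614 and 0.524. The ratio of BEX1 to BEX4, at -3.565 and -3.727, overlapped with scramble. With 2 libraries on each side the smallest two-sided p of an exact permutation test is 0.333, so none was run. Each ratio includes BEX1, and the choice of BEX1 for its high SETD2 siRNA values itself favours a larger shift in BEX1 than in its paralogs, so the ratios are a description.

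**Figure D2:**
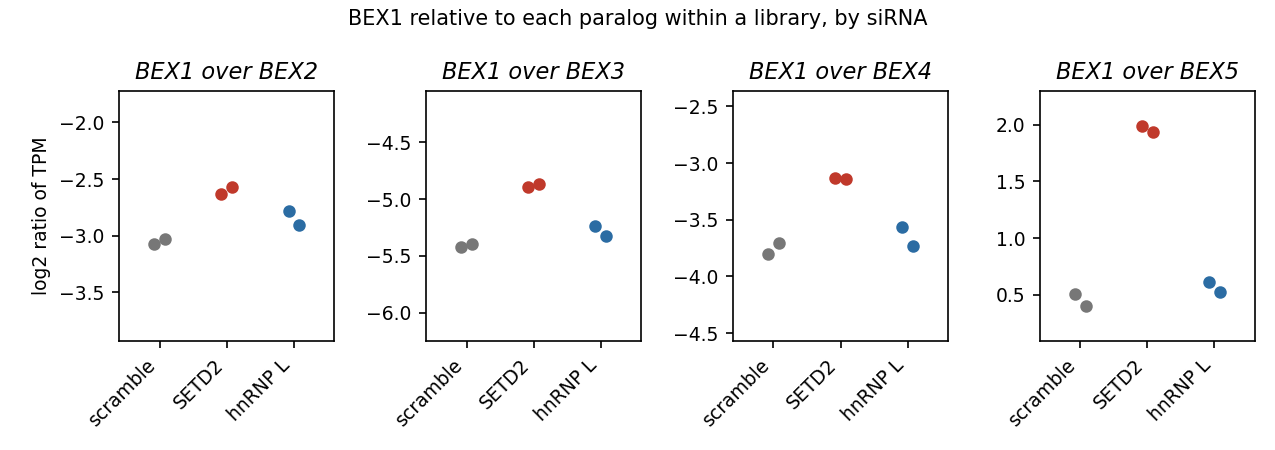
Log2 ratio of the TPM of BEX1 to that of each paralog in every library (points), by siRNA; the 4 panels have different levels and the same span. The SETD2 siRNA points are the highest in each panel, and for BEX5 they lie near 2 while the other 4 lie near 0.5.

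hnRNP L depletion left the BEX genes close to scramble. None of the 5 was called by limma, where 6.76% of all tested genes were called, and none had an unadjusted p under 0.05, which 28.4% of tested genes had. The log2 difference between hnRNP L and scramble siRNA was 0.05 for BEX1 (standard error 0.109, 95% interval -0.20 to 0.30, adjusted p = 0.813 from limma). For BEX2 it was -0.16 (standard error 0.0952, 95% interval -0.38 to 0.06, adjusted p = 0.308 from limma), and both hnRNP L siRNA libraries were below both scramble libraries, as in BEX3 and in 37.8% of all tested genes. In none of the 5 were both above, which 18.8% of all tested genes showed. BEX3 had a difference of -0.08 (95% interval -0.30 to 0.15), BEX4 of -0.06 (95% interval -0.27 to 0.15) and BEX5 of -0.06 (95% interval -0.35 to 0.23), with adjusted p of 0.649, 0.716 and 0.800 from limma. The median over all tested genes was -0.084. This comparison uses the same scramble libraries as the one that chose BEX1.

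Between the depletions, without the scramble libraries, BEX1 to BEX4 were lower and BEX5 higher with hnRNP L than with SETD2 siRNA, and in each of the 5 the libraries did not overlap. The log2 differences were -0.80 for BEX1, -0.58 for BEX2, -0.42 for BEX3, -0.32 for BEX4 and 0.53 for BEX5, beside a median of -0.099 over all tested genes. They rest on the SETD2 siRNA libraries in which BEX1 was chosen and are given without a p. Of all tested genes, 41.2% had both hnRNP L siRNA libraries lower and 18.6% had both higher. BEX1 was the only member called, where 6.84% of all tested genes were called. This call too is a description, and it was lost without any 1 of the 4 libraries compared.

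The siRNA targets and marker genes place these values. The SETD2 transcript went from 13.38 and 11.7 TPM to 4.24 and 4.91 TPM under its own siRNA, and HNRNPL from 341.04 and 457.16 TPM to 25.04 and 28.81 TPM under its own. All 4 kidney lineage genes (PAX2, LHX1, WT1, SIX2) had a mean of at least 1 TPM, with a sum of 17.48 to 22.88 TPM across libraries. Endothelial markers (PECAM1, CDH5, VWF) summed to at most 0.12 TPM. Of the leukocyte markers, PTPRC was listed at 0 in every library and CD3E and LYZ had at most 0.05 TPM. Fibroblast markers (COL1A1, COL3A1, LUM, DCN) summed to 4.23 to 6.92 TPM. Of 7 neuronal genes known from HEK293 lines, 6 were tested, and the sum of the 7 went from 470.39 and 489.48 TPM with scramble siRNA to 545.24 and 604.38 TPM with SETD2 siRNA and 752.1 and 791.32 TPM with hnRNP L siRNA. NEFL and NEFM carry the higher sum with hnRNP L siRNA, whereas INA and UCHL1 were highest with SETD2 siRNA, as BEX1 to BEX4 were. ENO2 was not, at 17.54 and 19.84 TPM for scramble, 17.05 and 18.25 TPM for SETD2 and 23.11 and 28.7 TPM for hnRNP L siRNA. STMN2, at a mean of 0.53 TPM, overlapped with scramble under SETD2 siRNA. INA, a neuronal intermediate filament protein, had 8.56 and 9.77 TPM for scramble, 11.94 and 12.26 TPM for SETD2 and 9.35 and 9.45 TPM for hnRNP L siRNA. UCHL1, a neuronal ubiquitin hydrolase, had 177.77 and 205.88 TPM, 213.81 and 215.06 TPM, and 171.66 and 168.39 TPM. In all, 4 of the 6 tested neuronal genes had both SETD2 siRNA libraries above both scramble libraries. Of all tested genes 22.9% did, and of those with a mean of at least 100 TPM 39.8%. NEFL and NEFM, the light and medium neurofilament subunits, were called higher after hnRNP L depletion, as were 1.75% of all tested genes. Their log2 differences were 0.82 (adjusted p = 0.00515 from limma) and 1.21 (adjusted p = 0.00166 from limma). The call of NEFL was lost without hnRNP L siRNA replicate 2 (adjusted p = 0.0595 from limma). After SETD2 depletion none of the 6 was called, where 0.104% of all tested genes were. The part of the neuronal genes in the BEX values was not tested.

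The TCEAL genes, the nearest relatives of the family, also had higher SETD2 siRNA values in their abundant members. Of 9 TCEAL genes 6 were tested, and TCEAL2, TCEAL5 and TCEAL6 had means of at most 0.14 TPM. TCEAL4 went from 273.76 and 245.44 TPM under scramble siRNA to 324.99 and 353.71 TPM under SETD2 siRNA. TCEAL8 went from 151.38 and 140.48 TPM to 171.94 and 182.12 TPM. TCEAL9 went from 160.68 and 179.59 TPM to 212.87 and 220.08 TPM. In these 3 genes, each above 100 TPM, the SETD2 siRNA libraries lay above both scramble libraries, as in BEX2, BEX3 and BEX4 and in 22.9% of all tested genes. They also belong to the class of abundant genes with short transcripts, of which 43.7% had both SETD2 siRNA libraries higher. TCEAL1, at a mean of 32.7 TPM, and TCEAL7, at a mean of 1.01 TPM, lay below, as did 20.6% of all tested genes. TCEAL3 overlapped. The median log2 difference of the 6 was 0.155, beside 0.014 over all tested genes. None was called, where 0.104% of all tested genes were. TCEAL4, TCEAL8 and TCEAL9 had differences of 0.39, 0.28 and 0.35, beside a median of 0.147 over the class of abundant genes with short transcripts.

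After hnRNP L depletion, TCEAL7 was called higher, as were 1.75% of all tested genes. It went from 0.57 and 0.99 TPM to 1.92 and 1.69 TPM (log2 difference 0.87, standard error 0.235, adjusted p = 0.0482 from limma). None of the 6 was called lower, where 5.01% of all tested genes were. The call of TCEAL7 held under 8 of 16 alternatives and was lost without scramble replicate 1 (adjusted p = 0.174 from limma), hnRNP L siRNA replicate 1 (0.231) or replicate 2 (0.137). TCEAL4 had 207.6 and 225.66 TPM with hnRNP L siRNA, below both scramble libraries (log2 difference -0.26, adjusted p = 0.147 from limma). TCEAL1 and TCEAL3 were also below, with log2 differences of -0.30 (adjusted p = 0.0907 from limma) and -0.61 (adjusted p = 0.102 from limma). Such a position below both scramble libraries was found in 37.8% of all tested genes. TCEAL3 and TCEAL1 overlap each other on the same strand, so their reads can belong to either.

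**Figure D3:**
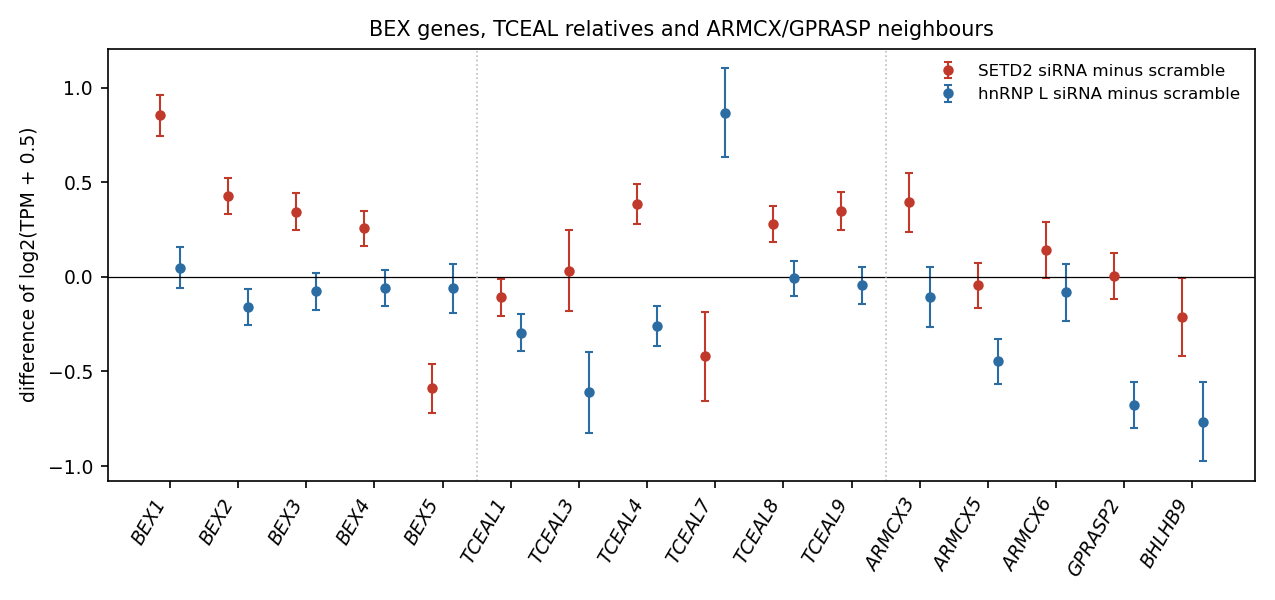
Difference of log2(TPM + 0.5) from scramble siRNA for the tested BEX genes, TCEAL relatives and ARMCX/GPRASP neighbours (points; bars, standard error of the fit) with SETD2 siRNA (red) and hnRNP L siRNA (blue). BEX1 has the highest red point at 0.85 and BEX5 the lowest at -0.59, while the blue points of the 5 BEX genes lie between -0.16 and 0.05.

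The ARMCX and GPRASP genes, which encode armadillo-repeat proteins and sorting proteins of G protein-coupled receptors, lie on the other side of BEX1, toward lower coordinates. Of 9 genes 5 were tested. ARMCX1, ARMCX2, ARMCX4 and GPRASP1 had means of at most 0.362 TPM. With SETD2 siRNA none was called, where 0.104% of all tested genes were, and the median log2 difference was 0.002. ARMCX3 was the 1 tested gene whose libraries did not overlap, from 23.79 and 18.58 TPM to 25.02 and 30.8 TPM. ARMCX5, ARMCX6, GPRASP2 and BHLHB9 overlapped with scramble. Both SETD2 siRNA libraries were above both scramble libraries in 22.9% of all tested genes and below them in 20.6%. With hnRNP L siRNA 2 of the 5 were called lower, as were 5.01% of all tested genes. GPRASP2 fell from 13.12 and 13.01 TPM to 7.36 and 8.68 TPM (log2 difference -0.68, adjusted p = 0.0129 from limma). BHLHB9 fell from 3.26 and 2.28 TPM to 1.19 and 1.64 TPM (log2 difference -0.77, adjusted p = 0.0485 from limma). The call of GPRASP2 held under 9 of 16 alternatives and that of BHLHB9 under 4 of 16, and both were lost without any 1 of the 4 libraries, with adjusted p of 0.0521 to 0.122 for GPRASP2 and 0.0573 to 0.267 for BHLHB9 from limma. ARMCX5 had a log2 difference of -0.45 (adjusted p = 0.0465 from limma), under the fold-change threshold. The read-through gene ARMCX5-GPRASP2 covers these 3 and could share their reads.

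**Figure D4:**
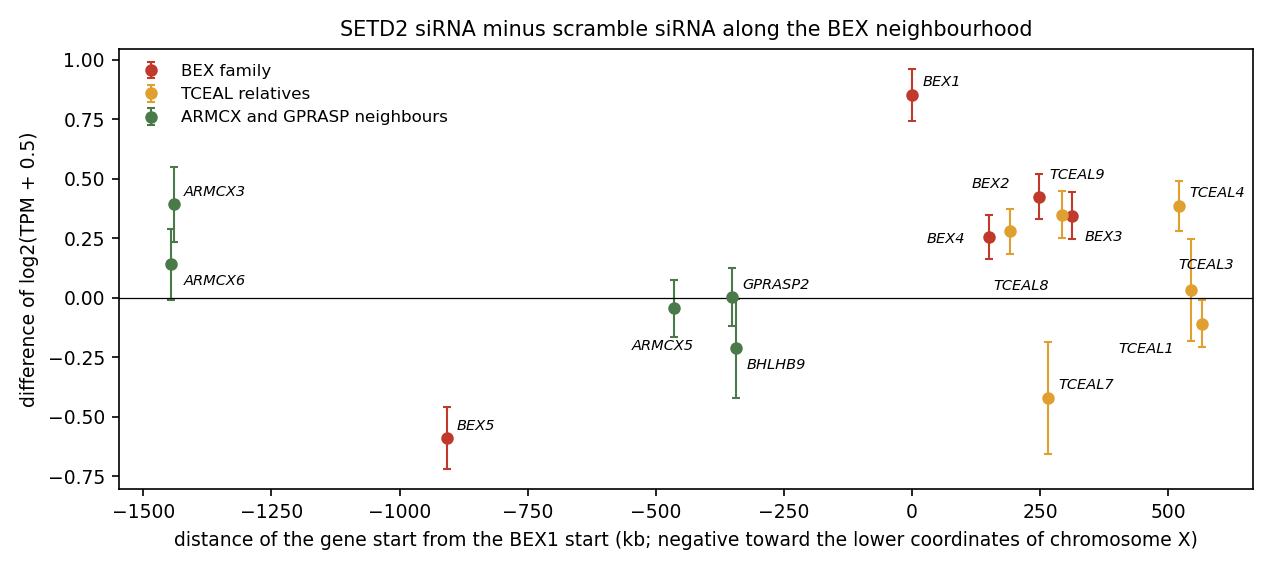
Difference of log2(TPM + 0.5) between SETD2 and scramble siRNA (points; bars, standard error of the fit) against the distance of each gene start from the BEX1 start in kb, for the 16 tested BEX, TCEAL and ARMCX/GPRASP genes. The 4 higher BEX genes and TCEAL8, TCEAL9 and TCEAL4 lie between 0 and 521.3 kb, interspersed with TCEAL7, which lies below 0. TCEAL3 and TCEAL1 lie beyond, at 543.8 and 564.8 kb, with differences of 0.03 and -0.11, and BEX5 lies at -908.2 kb.

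Of the 8 tested genes of these lists from BEX1 to TCEAL4 along the chromosome, 7 had both SETD2 siRNA libraries above both scramble libraries. Among all tested genes 22.9% did, and among the abundant genes with short transcripts 43.7%. This stretch starts at BEX1, which was chosen for its rise, and ends at a higher gene. Beyond it, TCEAL3 at 543.8 kb overlapped with scramble. TCEAL1 at 564.8 kb had 33.23 and 33.13 TPM with SETD2 siRNA, below its scramble values of 35.51 and 36.15 TPM. Within the stretch, TCEAL7, at about 1 TPM or less with scramble and SETD2 siRNA, was the exception. TCEAL7 starts 266.1 kb from BEX1, between BEX2 at 246.8 kb and TCEAL9 at 292.3 kb, and its SETD2 siRNA values of 0.49 and 0.4 TPM were below both scramble values.

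In p75NTR signalling, the pathway in which BEX3 was described, 17 of 22 listed genes were tested and none was called with either siRNA, where 0.104% of all tested genes were called with SETD2 and 6.76% with hnRNP L siRNA. Their median log2 difference was -0.071 with SETD2 siRNA and -0.124 with hnRNP L siRNA. NGFR, which encodes p75NTR, was low, at a mean of 1.62 TPM, and its log2 difference was -0.49 (adjusted p = 0.332 from limma) with SETD2 and -0.51 (adjusted p = 0.122 from limma) with hnRNP L siRNA. The most abundant were YWHAE (mean 933 TPM), a 14-3-3 protein that binds BEX3, RHOA (394 TPM) and ARHGDIA (299 TPM). The neurotrophins BDNF, NTF3 and NTF4 and the receptor NTRK3 had means under 0.5 TPM.

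Among 11 described partners of BEX proteins, 8 were tested and none was called, beside the same shares over all tested genes. OMP was listed at 0 in every library, and TAL1 and RUNX3 had means of at most 0.0717 TPM. DIABLO, the mitochondrial inhibitor of caspase inhibitors that binds BEX3, had a log2 difference of 0.28 with SETD2 siRNA (adjusted p = 0.296 from limma) and -0.07 with hnRNP L siRNA (adjusted p = 0.668 from limma). CALM3 (515 TPM) and CALM2 (304 TPM), which encode the calcium sensor calmodulin, were the most abundant. The medians over the 8 were 0.041 and -0.085.

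Across the 6 libraries, log2(TPM + 0.5) of BEX2, BEX3 and BEX4 had a Pearson's r of 0.983 to 0.992 for their 3 pairs, and BEX1 had an r of 0.941 to 0.968 with them. BEX5 had an r of -0.929 with BEX1 and of -0.856 to -0.864 with the others. These values share the same 6 libraries in 3 groups and are a description. Of 10352 genes with a mean of at least 5 TPM, the 5 whose profile was most like that of BEX1 were SCAF1 (r = 0.9959), CD3EAP (0.9952), GPRIN1 (0.993), FRMD8 (0.9868) and DRAP1 (0.9855). CD3EAP, a subunit of RNA polymerase I, measured 15.59 and 17.01 TPM, 23.89 and 24.95 TPM, and 16.3 and 16.16 TPM for scramble, SETD2 and hnRNP L siRNA. BTG2 and SESN1, both known as p53-responsive growth regulators, were among the 3 most like BEX2 (r = 0.9977 and 0.9964) and the 3 most like BEX3 (r = 0.9954 and 0.9976). BTG2 measured 12.09 and 14.18 TPM, 22.06 and 21.39 TPM, and 10.69 and 11.04 TPM in the same order. The third was NME1-NME2 for BEX2 (r = 0.9944), a read-through gene, and PHF5A for BEX3 (r = 0.9931). The 3 most like BEX4 were TBCA (r = 0.9974), a tubulin folding cofactor, SNX12 (r = 0.9973) and GIPC1 (r = 0.9963). Those most like BEX5 were FAM219B (r = 0.985), LINC00173 (r = 0.9848) and NREP (r = 0.9824).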

How the data were processed

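RNA-seq of 6 libraries, 2 per siRNA, was used. H3K36me3 ChIP-seq was not analysed here. Per the labels and methods, the authors sequenced paired reads of ribodepleted and polyA-enriched RNA, aligned them with STAR 2.6.1c to hg38 with Ensembl gene models, and deposited TPM per gene from RSEM 1.3.0. Each column sums to 1000000. The study's own test needs counts, so limma 3.58.1 in R 4.3.3 was used on log2(TPM + 0.5), fitting the 3 siRNAs together with a variance trend and Benjamini-Hochberg adjustment over 16300 genes with a mean of at least 0.5 TPM. The script was tested on simulated data. p-values measure only the spread between these libraries. Coordinates and overlaps came from GENCODE 44, symbols from the deposited table, and tables were handled with pandas 2.3.3 in Python 3.11.15.

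The members and gene lists were chosen with earlier results of these data known. Named genes are all BEX, TCEAL, ARMCX and GPRASP genes, the siRNA targets, called genes and the 3 most abundant of the p75NTR and partner lists, and the genes most correlated with each BEX gene. NGFR, DIABLO, NEFL, NEFM, INA, UCHL1, ENO2, STMN2, genes with very low means and the class of abundant short transcripts were added after values were seen. Genes that the rule or lists include but the text leaves out are not reported here. Alternatives were pseudocounts, filters, scalings, biotypes, groups in the fit, no trend, each library left out, and replicate blocks.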

Additional observations from a re-analysis of the deposited data

How the results depend on the processing

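With hnRNP L siRNA against scramble siRNA, 0 BEX genes were called under each of 16 alternatives. With SETD2 siRNA, BEX1 to BEX4 stayed higher and BEX5 lower under each of 14 alternatives: BEX1 ranged from 0.759 to 0.927 on the log2 scale, BEX2 from 0.327 to 0.48, BEX3 from 0.218 to 0.407, BEX4 from 0.159 to 0.287 and BEX5 from -0.714 to -0.464. The count of called BEX genes was 1, and 0 without a filter, without a variance trend, with only the 2 groups compared, with quantile normalization, in TPM without mitochondrial genes and without any 1 of the 4 libraries compared (range 0 to 0). Between the depletions it was 1, and 2 with median-ratio scaling, quantile normalization or a pseudocount of 0.1, and 0 without any 1 of the 4 compared (range 0 to 0). Libraries of the siRNA outside a comparison were not left out. Over all genes, SETD2 siRNA gave 17 calls, 27 with a mean of at least 1 TPM, 1 without a filter, 60 with protein-coding and lncRNA genes, and 8 to 38 without 1 library. hnRNP L siRNA gave 1102, 235 without a filter, 715 with the replicate block and 172 to 821 without 1 library, and 74.0% of the calls were lower, 54.7% after median-ratio scaling. Between the depletions there were 1115, 186 without a filter and 127 to 230 without 1 library. The causes were not tested. Scramble and hnRNP L siRNA share numbers 1 and 2, but their differences between libraries correlated with an r of -0.1256 across genes, so the numbers were not taken as pairs. With crossed numbers, chosen after seeing the data, the replicate block gave 1406. With 2 libraries a group, no search for a library far from its group was made.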
